A study of Mus musculus with 2 samples.

Results

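Monocyte-like cells that carried Ace, Fabp4 and Treml4 transcripts were examined among splenic CD11c+ cells profiled by single-cell RNA sequencing (scRNA-seq). They were chosen on raw unique molecular identifiers (UMIs), each of which marks 1 captured RNA molecule. A cell was taken when its UMIs of Ace, Fabp4 and Treml4 summed to at least 3. It also had to carry fewer than 5 UMIs of Negr1, fewer than 10 of S100a8 plus S100a9 and fewer than 5 of Siglech. The limits on mature dendritic cell (DC) and cDC1 genes were fewer than 4 UMIs of Ccr7, Fscn1, Socs2 and Cacnb3 together and fewer than 2 of Xcr1 plus Clec9a. The rule selected 354 of 19339 cells, 132 of 7814 in the WT library and 222 of 11525 in the H2-Aa cit/cit library. The values of these genes made the choice, so their levels here are a description and support nothing.

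The WT library came from mice of genotype H2-Aa +/+ and the other from H2-Aa cit/cit mice. Both were pools of 3 female mice aged 4 months, all naive. H2-Aa encodes the α chain of an MHC class II molecule, and the cit allele, a germline mutation made by chemical (ENU) mutagenesis, impairs splicing of its transcript throughout the animal, so the cells came from mice that lack MHC-II in every tissue. Live CD45.2+ CD11c+ cells were sorted after magnetic enrichment, which means that monocytes low in CD11c were not sampled. With 1 library per genotype there was no replicate, no test was made, and every interval below is a 95% interval of counting error alone. Genotype and library cannot be told apart.

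Non-classical monocytes are the monocytes that patrol the inner wall of blood vessels. They arise from Ly6c2-expressing classical monocytes, depend on the nuclear receptor Nr4a1 and the factor C/EBPβ, and survive through the CSF1 receptor. In the spleen they share CD11c and Fc receptors with DC, so that a CD11c+ sort can hold both. DC instead depend on the receptor Flt3 and, for conventional DC, carry the factor Zbtb46.

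The 3 selecting genes have different roles. Ace (11:105967945-105989964, plus strand, GRCm38) encodes angiotensin-converting enzyme, a peptidase on the cell surface. Fabp4 (3:10204088-10208576, minus strand) encodes a fatty acid carrier and is a target of the nuclear receptor PPARγ, encoded by Pparg (6:115360951-115490399, plus strand). Treml4 (17:48264295-48275360, plus strand) encodes a receptor of the TREM family that is found on non-classical monocytes and on some DC.

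The selected cells had a median of 6739 UMIs in WT against 6628 in H2-Aa cit/cit. Their totals of 1004678 and 1773224 UMIs set the precision of each value. Levels are given as CPM, the UMIs of a gene per 1000000 UMIs of its class. No selected cell had more than 10% mitochondrial UMIs, and 1 WT cell lay, with 4 from H2-Aa cit/cit, above the 99th percentile of UMIs of their library. The libraries shared 31 cell barcodes, none of them among the selected cells.

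Ccr2-expressing DC from the same libraries served as the reference. They had at least 2 UMIs of Ccr2, at least 1 of Flt3, a sum of Ace, Fabp4 and Treml4 below 3 and the same exclusions. This gave 131 cells in WT plus 322 in H2-Aa cit/cit, with medians of 11087 and 8689.5 UMIs, so they held more UMIs per cell than the monocyte-like cells. C1q macrophages (29 and 20 cells) and cDC1 (303 and 500 cells) are named below only where a level in them is needed.

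The cells were not uniform and spanned a wide range of selecting UMIs. A sum of 3 to 4 UMIs was found in 48 of 132 cells (36.4%) in the WT and in 120 of 222 (54.1%) in the H2-Aa cit/cit library. A sum of 10 or more was found in 48 cells of WT (36.4%) but in 22 of H2-Aa cit/cit (9.91%). All 3 genes were detected together in 50 cells of WT (37.9%) but 49 of H2-Aa cit/cit (22.1%), while Treml4 alone had qualified 28 cells of WT (21.2%) but 61 of H2-Aa cit/cit (27.5%). The H2-Aa cit/cit cells therefore lay nearer to the limit of the rule.

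The label was set beside lists of 16 non-classical monocyte genes and 9 DC genes, none of which the rule used. Both lists were chosen with earlier results of these data known, so the shares below are a description. In 108 of 132 WT cells (81.8%, 74.2 to 88.0%, exact interval) the monocyte list had more UMIs than the DC list. In the H2-Aa cit/cit library this held for 145 of 222 cells (65.3%, 58.7 to 71.6%). The Ccr2-expressing DC, chosen in part on Flt3, a gene of the DC list, gave 14.5% and 7.45% by the same measure, and the C1q macrophages 86.2% (25 of 29 cells) and 95% (19 of 20), shares above those of the selected cells. Among cells with a sum of 10 or more every cell (WT 48, H2-Aa cit/cit 22) had more monocyte than DC UMIs, while at a sum of 3 to 4 it was 50% and 48.3%. At a sum of 5 to 9 it was 36 of 36 cells in WT (100%, 90.3 to 100%) but 65 of 80 in H2-Aa cit/cit (81.2%, 71.0 to 89.1%). The cells just above the limit were thus a mixture in which about as many carried more DC UMIs.

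**Figure D1:**
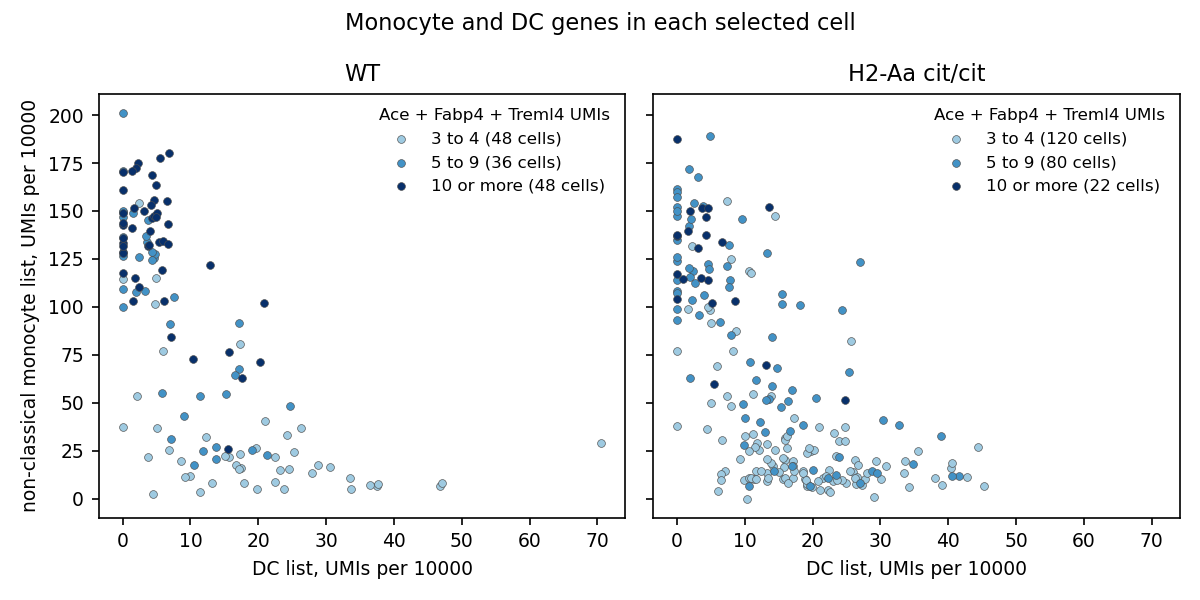
Each point is a selected cell, with UMIs of 9 DC genes per 10000 UMIs on the x axis and UMIs of 16 non-classical monocyte genes per 10000 on the y axis, for WT (left) and H2-Aa cit/cit (right), shaded by the sum of Ace, Fabp4 and Treml4 UMIs. The darkest points (a sum of 10 or more, 48 cells left and 22 right) lie mostly at the upper left, and the palest (a sum of 3 to 4, 48 and 120 cells) spread along the bottom.

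Across the limit itself the change was gradual. Cells with a sum of exactly 3 had 28.9 CPM of Cebpb and 177 CPM of Flt3 in WT. In H2-Aa cit/cit they had 54.9 and 196 CPM. Cells with a sum of 2, just outside, had 28.2 CPM of Cebpb and 245 CPM of Flt3 in WT, while H2-Aa cit/cit had 26.8 and 243 CPM. Cebpb encodes the factor C/EBPβ and Flt3 the growth factor receptor of DC. Of the cells with a sum of exactly 3, 48.4% in WT but 43.9% in H2-Aa cit/cit had more monocyte than DC UMIs, against 40.5% and 30.2% at a sum of 2.

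The share of the monocyte-like cells was close in the libraries at the limit of 3 and turned with the limit and with depth. They made up 1.69% (1.42 to 2.0%) of the WT cells, against 1.93% (1.68 to 2.19%) in H2-Aa cit/cit, a difference of 0.237 percentage points (-0.153 to 0.612). For thinning to 1500 UMIs, shallower cells had to be dropped, 734 of them in WT against 958 from H2-Aa cit/cit. Of the cells that remained, the same limit took 0.734% and 0.492% after thinning, a difference of -0.242 points (-0.498 to -0.0110). Over all cells, unthinned, the shares with 2 as the limit were 3.11% and 4.08%. With 5 they were 1.07% and 0.885%, and the difference of -0.190 points (-0.488 to 0.0889) had the other sign. From a sum of 10 on, where the monocyte list prevailed in every cell, WT had 0.614% (0.453 to 0.814%) and H2-Aa cit/cit 0.191% (0.120 to 0.289%). That difference of -0.423 points (-0.633 to -0.244) exceeded counting error, but no second library per genotype was there to show its spread. A limit on UMIs of 3 genes also moves with the levels of those genes in each cell, and the part of that in the shares was not tested.

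The exclusions removed unequal numbers. Before them a sum of 3 was reached by 355 cells of WT against 356 of H2-Aa cit/cit, and they took 223 and 134 of these. On Xcr1 plus Clec9a, genes of cDC1, 168 and 112 of them lay at or over the limit, and Treml4 stood at 57.0 and 42.5 CPM in the cDC1 of these libraries. Of sums of at least 10, 60 cells of WT against 25 of H2-Aa cit/cit were there before the exclusions, which removed 12 and 3.

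**Figure D2:**
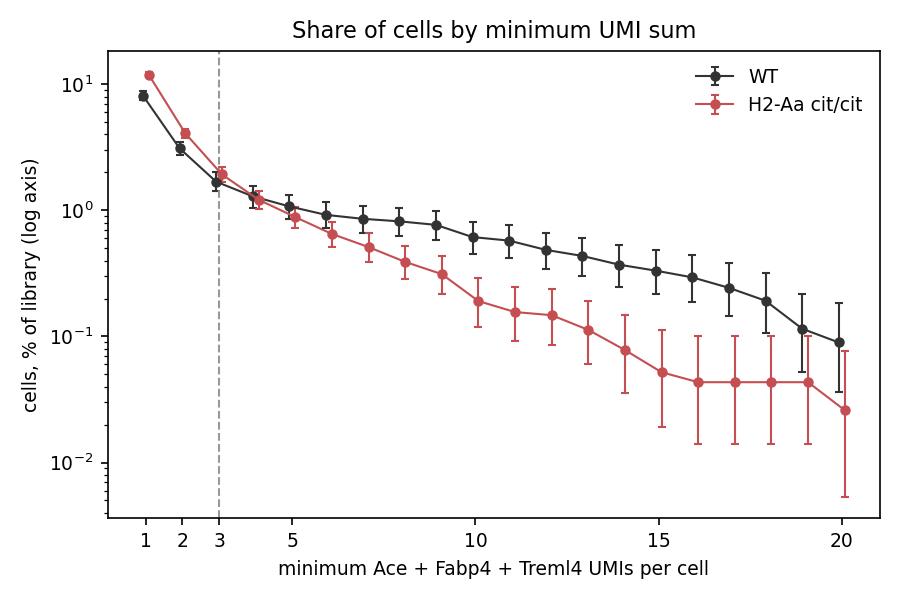
Share of each library's cells (log axis, %) that passed the exclusions, by the minimum sum of Ace, Fabp4 and Treml4 UMIs, for both libraries, with bars for 95% exact intervals and a dashed line at the limit of 3. The lines cross between 3 and 4, with 1.69% against 1.93% at 3 and 0.614% against 0.191% at 10.

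The selecting genes themselves stood at different levels. Fabp4 had 377 CPM in the WT against 98.1 CPM in the H2-Aa cit/cit cells and was detected in 69 and 61 cells. Ace had 430 and 307 CPM and Treml4 344 and 297 CPM. Of the 3, Fabp4 differed most between the libraries. In the Ccr2-expressing DC they stood at 2.10 and 0.335 CPM (Fabp4), 10.5 and 10.7 CPM (Ace) and 6.29 and 12.4 CPM (Treml4), which the rule fixed to be low.

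Against the Ccr2-expressing DC, 3771 genes had at least 50 CPM in either class in both libraries, the genes of either rule left out. Of these, 51 were at least 4-fold higher in the monocyte-like cells of both libraries (1.35%), and 19 were at least 4-fold lower (0.504%). Genes under that floor in either library, Dnah12 among them, were not counted. The median log2 ratio of all 3771 was 0.13 in WT against 0.09 in H2-Aa cit/cit, and 49.2% of them were higher and 31.8% lower in both libraries by any amount. Among genes of at least 100 CPM the 10 highest were Pparg, Cd300e, Cebpb, Apoe, Eno3, Fgd4, Ear2, Zfyve9, Pglyrp1 and Slc12a2. Pparg was not in the rule but was named beforehand, with the selecting genes, as a marker of these cells, so its rank is a description. Of the 51, 48 were also past 4-fold in cells with a sum of 10 or more but 16 in cells with a sum of 3 to 4.

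Pparg and Cebpb encode transcription factors. Pparg stood at 413 CPM in WT against 205 CPM in H2-Aa cit/cit monocyte-like cells, against 4.89 and 5.37 CPM in the Ccr2-expressing DC, log2 ratios of 6.4 (5.35 to 7.72) and 5.26 (4.54 to 6.08). Cebpb stood at 618 and 270 CPM against 11.2 and 11.7 CPM, log2 ratios of 5.79 and 4.52. Nr4a1 had 389 and 190 CPM against 41.9 and 34.5 CPM, which gave 3.22 and 2.46. Pou2f2, which encodes the octamer factor Oct-2 and marks non-classical monocytes, was higher by 2.52 and 1.82. Tcf7l2, a factor of the Wnt pathway, was higher by 3.60 and 2.57.

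All 16 genes of the non-classical monocyte list were higher than in the Ccr2-expressing DC in both libraries, 9 of them past 4-fold. Their median log2 ratios were 2.94 and 2.39. Of all 3771 genes, 49.2% were higher and 1.35% past 4-fold higher. Summed, the list took 7278 CPM in WT against 4444 CPM in H2-Aa cit/cit monocyte-like cells, against 1134 and 1028 CPM in the Ccr2-expressing DC. Its most abundant gene was Gngt2, a G protein subunit, at 1058 and 712 CPM. Cd300e, an activating receptor of monocytes, had 264 and 151 CPM against 6.98 and 4.02 CPM. The ribonuclease gene Ear2 was higher by 4.25 and 3.46 and the enolase gene Eno3 by 4.05 and 3.75. Cx3cr1, the fractalkine receptor of patrolling monocytes, was the gene of the list nearest to the DC, at 265 and 117 CPM against 163 and 91.2 CPM.

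Cd209d, Ly6c2, Clec10a, Bst2, Vim and Tcf4 were among the 10 lowest genes. Ly6c2, a gene of the classical monocyte list, had 1 UMI in the 132 WT and 7 UMIs in the 222 H2-Aa cit/cit cells. The Ccr2-expressing DC had 206 and 523 UMIs of it. The latter lay in 26 of 131 and 85 of 322 cells, with up to 41 and 27 in 1 cell. The log2 ratios were -7.18 and -5.47. The reference also held genes of other cells. In H2-Aa cit/cit it had 103 UMIs of Siglech, a plasmacytoid DC gene, and 52, 22 and 14 of the NK genes Gzma, Ncr1 and Klrb1c. The monocyte-like cells had 0 of these. Single reference cells reached 55 (WT) and 59 (H2-Aa cit/cit) UMIs of Tcf4, and 32 and 27 of Bst2. The part of such cells in the low genes was not tested. The lectin gene Cd209d was lower by -8.05 and -7.47, from 1 and 2 UMIs in the monocyte-like cells. Mgl2, another lectin gene, had 0 UMIs in the WT cells, at least 25.96-fold lower than the 111 UMIs of the WT Ccr2-expressing DC when 3 UMIs are taken as the floor. In H2-Aa cit/cit it had 11 UMIs (6.20 CPM) against 192 UMIs (64.4 CPM). Clec10a, Vim, Bst2 and Tcf4 were lower by -3.81, -2.72, -2.69 and -2.44 in WT and by -3.42, -2.59, -2.71 and -2.35 in H2-Aa cit/cit. The other 4 of the 10 lowest, Gria3, Cyp7b1, Aff3 and Cd200r1, were lower by -4.07, -3.85, -3.93 and -3.25 in WT and by -4.27, -5.20, -3.45 and -2.55 in H2-Aa cit/cit. Some genes of the list of 8 for classical monocytes ran the other way. Mgst1, which encodes a microsomal glutathione transferase, had 39 and 23 UMIs against 0 in the Ccr2-expressing DC of either library, at least 18.5-fold and at least 12.9-fold higher. Chil3, which encodes a chitinase-like protein, had 7 UMIs in WT against 0, at least 3.33-fold higher, and 4 UMIs in H2-Aa cit/cit against 1.

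The DC list did not disappear. Of its 8 genes with enough UMIs, 6 were lower and 2 higher than in the Ccr2-expressing DC in both libraries. Lower were 31.8% of all 3771 genes and higher 49.2%. The list summed to 1259 CPM in WT against 1673 CPM in H2-Aa cit/cit monocyte-like cells, against 2488 and 2571 CPM. Dpp4, which encodes the peptidase CD26, was its most abundant gene at 442 and 537 CPM. The level moved with the sum of the selecting genes. Flt3 stood at 50.4 CPM in WT against 25.6 CPM in H2-Aa cit/cit cells with a sum of 10 or more, and at 194 CPM in both libraries at a sum of 3 to 4. Zbtb46 went the same way, from 28.0 to 326 CPM in WT and from 115 to 227 CPM in H2-Aa cit/cit.

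**Figure D3:**
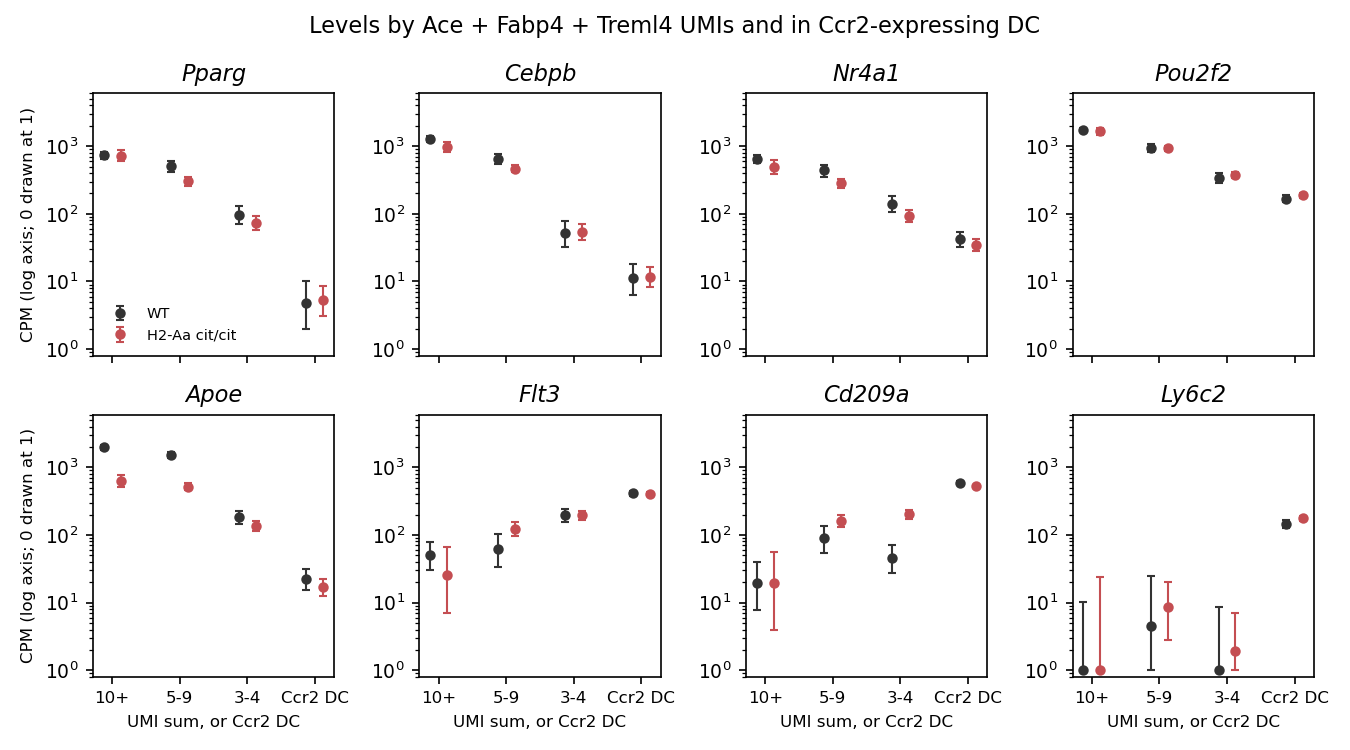
Level (CPM, log axis, 0 drawn at 1) of 8 genes in monocyte-like cells split by the sum of Ace, Fabp4 and Treml4 UMIs and in Ccr2-expressing DC, for WT and H2-Aa cit/cit, with bars for 95% exact Poisson intervals. Pparg, Cebpb, Nr4a1, Pou2f2 and Apoe drop from left to right, for Cebpb from 1267 to 52.0 CPM between the first and the third class in WT, while Flt3 climbs and Ly6c2 stays near 0 in all monocyte-like classes.

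Markers of other cells were sparse in the monocyte-like cells. The T cell list had 2 UMIs in each library, the NK list 0 and 1, the plasma cell list 2 and 0 and the platelet list 6 and 0, all 6 of Itga2b with Pf4 and Ppbp at 0. The erythroid list had 2 and 16 UMIs. B cell genes had 36 and 39 UMIs, mostly Cd79b. Neutrophil genes had 49 and 89 UMIs, mostly Csf3r, with Ly6g, Cxcr2 and Camp at 0 in both. The list of 12 red pulp macrophage genes summed to 386 and 385 CPM, of which Adgre1 (F4/80, also on monocytes) made up 254 and 254 CPM. Mertk was at 0 in both libraries. Of 2 genes of this list tested between the genotypes, 1 was past 2-fold higher in H2-Aa cit/cit, against 1.03% of all genes tested. The median log2 ratio of these 2 was 0.83, with 1.87 at a sum of 3 to 4 and -0.19 at 10 or more. C1qa stood at 1537 and 1813 CPM in the C1q macrophages and at 16.8 and 0 CPM in the monocyte-like cells with a sum of 10 or more. Over all selected cells the macrophage list had medians of 2.98 and 2.49 per 10000 UMIs, against 76.2 and 66.5 in the C1q macrophages. Single cells reached 100 in WT, at a sum of 5 to 9, and 72.3 in H2-Aa cit/cit, at 3 to 4.

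Of 14 lipid handling genes, Pparg among them, 11 were higher and 2 lower than in the Ccr2-expressing DC in both libraries. Of all 3771 genes, 49.2% were higher and 31.8% lower. Past 4-fold higher were 4 of the 14, against 1.35% of all genes, and the median log2 ratios of the 14 were 0.99 and 0.71. With 2 as the limit of the rule 7 were higher. Apoe (7:19696109-19699188, minus strand) encodes apolipoprotein E, a carrier of cholesterol. It had 1115 CPM in WT against 304 CPM in H2-Aa cit/cit monocyte-like cells against 22.4 and 17.1 CPM. Apoc2, the cofactor of lipoprotein lipase, had 219 and 130 UMIs against 0 in the Ccr2-expressing DC of either library, at least 104-fold and at least 72.9-fold higher. Cd36, a scavenger receptor, was higher by 4.43 and 3.66. C1q macrophages had more Apoe still, 3421 and 3639 CPM.

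Receptors that signal through ITAM or ITIM motifs, the activating and inhibitory tails of myeloid receptors, were higher in 14 of 16. Among all 3771 genes, 49.2% were higher in both libraries. The paired receptor gene Pilra stood at 156 and 71.6 CPM against 4.19 and 2.35 CPM, and Fcgr4, an activating IgG receptor of non-classical monocytes, at 219 and 162 CPM against 11.9 and 31.5 CPM. Fcgr2b, the inhibitory IgG receptor, was lower by -1.31 and -0.38. Among BCL2 family genes 7 of 8 were higher, against the same 49.2%. The survival gene Bcl2 itself had 482 and 217 CPM against 38.4 and 47.3 CPM, log2 ratios of 3.65 and 2.20.

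Genes of the trafficking list were higher in 10 of 13, against 49.2% of all 3771 genes. Past 4-fold in both libraries, 0 of the 13 were higher and 1 was lower, against 1.35% and 0.504% of all. S1pr5, the sphingosine phosphate receptor of patrolling monocytes, had 93 UMIs against 0 in WT alone, at least 44.2-fold higher there. Itgal, the α chain of LFA-1, was higher by 2.84 and 1.98. MHC-II genes were lower in 9 of 10, with median log2 ratios of -0.91 (WT) and -0.27 (the other library), the exception being H2-Aa, with ratios of -0.93 in WT but 0.04 in H2-Aa cit/cit. H2-Ab1, the β chain partner of H2-Aa, had 3986 CPM against 7523 CPM in WT, while H2-Aa cit/cit had 5809 against 8085 CPM. Cd74, the invariant chain, had 10128 against 18839 CPM and 12706 against 19007 CPM. ER folding genes were lower in 16 of 20, with median log2 ratios of -0.32 and -0.56. Beside the MHC-II and ER folding lists, 31.8% of all 3771 genes were lower in both libraries.

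The selected cells were also split by Fabp4. The 6 genes whose detection differed most between cells with and without Fabp4 UMIs were Pparg, Ciita, Cebpb, Slamf7, Xylt1 and Bcl2. Pparg stood at 805 CPM in the 69 WT cells with Fabp4 and at 114 CPM in the other 63. In the H2-Aa cit/cit library the 61 cells with Fabp4 had 662 CPM, and the 161 without it 92.8 CPM. Ciita, the activator of MHC-II genes, ran the other way, at 80.5 against 648 CPM in WT and 203 against 607 CPM in H2-Aa cit/cit. Slamf7, a receptor of the SLAM family, went with Ciita, at 48.3 against 309 CPM and 114 against 274 CPM.

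Fabp4 was a selecting gene and the 6 genes were picked for their difference, so these values are a description. The cells with Fabp4 held fewer UMIs (medians of 5692 against 8427 UMIs in WT and 4807 against 7739 UMIs in H2-Aa cit/cit). After each cell was thinned to 1500 UMIs, 70.1% of WT cells with Fabp4 had a Pparg UMI against 17.5% of those without, compared with 98.6% and 33.3% unthinned. In the other library the thinned values were 52.5% and 13.04%, and the unthinned ones 86.9% and 24.2%. The Ccr2-expressing DC gave 0.763% and 0.932% thinned. Ciita, thinned, was found in 7.46% against 52.4% of the WT and in 10.2% against 53.4% of the H2-Aa cit/cit cells, and unthinned in 18.8% against 85.7% and in 24.6% against 85.7%. Too shallow for thinning were 2 cells in each library, all with Fabp4.

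Promoters of the marker genes are shown because Cebpb was among the genes that set these cells apart most. Of 20 genes, the 16 of the list and the 4 named markers, 16 matched RefSeq (GRCm38.p6) by symbol, with 20 promoters between them. The letters TTGCNNAA, a form of the C/EBP motif searched on both strands from 250 bases before to 50 after each start, were in 3 of the 20 (15%) and in 9.56% of all 32851 promoters. AAAGGTCA, the letters bound by Nr4a1, were in none of the 20 and in 1.34% of all. In the 3 stretches below, all read on the plus strand, capitals mark the C/EBP letters. For Pparg 1 of 2 matches is shown. That stretch lies inside the span of Pparg given above, before an inner start, and which start these cells used was not tested.
Pparg, chr6:115422024-115422065: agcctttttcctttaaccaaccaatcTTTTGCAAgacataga
Ear2, chr14:44102538-44102597: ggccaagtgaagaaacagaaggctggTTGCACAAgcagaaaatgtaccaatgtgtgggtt
Adgre4, chr17:55749912-55749971: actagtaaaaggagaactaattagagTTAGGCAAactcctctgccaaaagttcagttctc
Such a match is a description of the sequence and not a binding site. Pparg and Ear2, as given above, were among the genes highest against the Ccr2-expressing DC, and Adgre4, an adhesion receptor of the F4/80 family, was higher by 2.41 and 2.42.

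Between the genotypes, H2-Aa, the gene that carries the cit mutation, had the lowest ratio. H2-Aa (17:34282744-34287823, minus strand) had 4506 CPM in WT against 62.0 CPM in H2-Aa cit/cit monocyte-like cells, a log2 ratio of -6.18 (-6.47 to -5.91). In the Ccr2-expressing DC it went from 8570 to 60.4 CPM. Beyond it, 41 of 3998 genes that reached 50 CPM in 1 library or both were at least 2-fold higher in H2-Aa cit/cit (1.03%), and 61, H2-Aa among them, at least 2-fold lower (1.53%). The median log2 ratio of all 3998 was -0.03, with 46.9% positive and 53.1% negative. The lists of non-classical monocyte and lipid genes had medians below 0, and those of ER folding and MHC-II genes medians above 0.

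All 16 non-classical monocyte genes had a negative ratio, 6 of them past 2-fold, against 53.1% and 1.53% of all 3998 genes. Their median was -0.76. Cebpb fell by 1.20 on the log2 scale, from 618 to 270 CPM, and Ear2 by 1.21, from 453 to 196 CPM. The log2 ratios of Cd36, Cx3cr1, Spn and Nr4a1 were -1.27, -1.18, -1.10 and -1.03. Pparg fell by 1.01, from 413 to 205 CPM. The DC list had 6 of 6 tested genes positive, against 46.9% of all, with a median of 0.34.

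These differences varied with the sum of the selecting genes. Within cells with a sum of 10 or more the median of the 16 genes was -0.14, within cells with a sum of 5 to 9 -0.33 and within cells with a sum of 3 to 4 0.07, while in the Ccr2-expressing DC it was -0.31. Among cells with a sum of 10 or more Cebpb stood at 1267 CPM (WT, 48 cells) and 981 CPM (H2-Aa cit/cit, 22 cells) (log2 ratio -0.37), and at 52.0 and 54.8 CPM at a sum of 3 to 4 (0.07). At a sum of 5 to 9 Cebpb stood at 651 and 465 CPM (-0.49, -0.78 to -0.18). Pparg stood at 730 and 724 CPM at a sum of 10 or more (-0.01), at 504 and 304 CPM at 5 to 9 (-0.73, -1.08 to -0.38) and at 96.9 and 73.0 CPM at 3 to 4 (-0.41, -0.98 to 0.18). The median of the DC list was 0.78 at a sum of 5 to 9, but -0.23 at 10 or more and -0.12 at 3 to 4, where its sign turned. Over all selected cells the median of the 16 was -0.76. The classes were cut on the selecting genes, whose levels themselves differed between the libraries, so the values within them are a description. The part of the class sizes in the overall ratios was not tested.

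Apoe differed in another way. It fell by 1.87 on the log2 scale over all monocyte-like cells, by 1.54 at a sum of 5 to 9 and by 1.67 at a sum of 10 or more, where 1972 CPM in WT stood against 622 CPM in H2-Aa cit/cit. Among cells with a sum of 3 to 4 the levels were 182 and 137 CPM. Of the 1120 Apoe UMIs in the WT selected cells, 138 lay in 1 cell. The largest count in 1 H2-Aa cit/cit cell was 45 of 539. At least 1 Apoe UMI was carried by 75 of 132 cells in WT, and by 101 of 222 in the other library. As a mean over cells the Apoe ratio was -1.60. The part of single cells in the fall was not tested. In C1q macrophages Apoe was at 3421 CPM in WT against 3639 CPM in H2-Aa cit/cit. Of 14 lipid genes 11 had a negative ratio, 4 past 2-fold, with a median of -0.42. Among all 3998 genes these shares were 53.1% and 1.53%. Fdps, an enzyme of sterol synthesis that is not on the list, fell by 1.80, from 75 to 38 UMIs, 18 of the 75 in 1 WT cell. Its ratio was -0.67 among cells with no Flt3 UMI and -1.02 as a mean over cells. Lyz2, the lysozyme gene of myeloid cells, fell by 1.19, from 1923 to 841 CPM, and in the Ccr2-expressing DC by 1.52.

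Of 21 ER folding genes tested, 8 were past 2-fold higher, against 1.03% of all 3998 genes, and 13 were not past 2-fold. The ratio was positive in 18 of the 21, against 46.9% of all, with a median of 0.53 (0.80 in the Ccr2-expressing DC). Hspa5, the ER chaperone BiP, rose from 215 to 582 CPM (1.44, 1.22 to 1.66). Manf, a secreted ER stress factor, rose from 66.7 to 195 CPM (1.54), Sdf2l1, a partner of BiP, from 58.7 to 184 CPM (1.65) and the calreticulin gene Calr from 187 to 394 CPM (1.07). The median was 0.59 at a sum of 3 to 4 and 0.35 at 10 or more. Hspa5 stood at 227 and 725 CPM at a sum of 3 to 4, and at 171 and 301 CPM at 10 or more. Xbp1, Edem1 and Ddost, named after their values were seen, were the 3 with a negative ratio, of -0.23, -0.01 and -0.17.

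The MHC-II genes other than H2-Aa were higher in H2-Aa cit/cit in 9 of 9, none of them past 2-fold, with a median over all 10 of 0.43. H2-Ab1 stood at 3986 and 5809 CPM (0.54, 0.49 to 0.60) and H2-Eb1 at 4138 and 6556 CPM (0.66). At a sum of 10 or more H2-Ab1 stood at 1334 and 2731 CPM (1.03, 0.84 to 1.22) and H2-Eb1 at 1362 and 2743 CPM. At a sum of 3 to 4 H2-Ab1 was at 6236 and 7044 CPM (0.18). For H2-Ab1 the gap between the libraries was wider where its level was lower. This did not hold for the whole list, of which 7 genes were higher at a sum of 10 or more. H2-DMb1, named after its value was seen, had 0.12 at a sum of 3 to 4 and 0.01 at 10 or more. MHC-I genes had 9 of 15 positive with a median of 0.20, of which Nlrc5, their activator, had 0.44 and B2m -0.33. Interferon-stimulated genes had 9 of 13 positive with a median of 0.41, and 1, Oasl2, past 2-fold (1.26). Among all 3998 genes, 46.9% were positive and 1.03% past 2-fold higher.

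Immediate-early genes, which respond within minutes to stimulation, had 15 of 18 negative ratios with a median of -0.38, and -0.47 in the Ccr2-expressing DC. Among all 3998 genes, 53.1% were negative. Egr1 fell by 2.13, from 52 to 21 UMIs, but its ratio was -0.80 (-2.84 to 0.83, 16 and 4 UMIs) at a sum of 10 or more. Dusp2 fell by 1.16 and Zfp36, which destabilises cytokine mRNA, by 1.04. Fosb rose by 1.02.

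The remaining genes of largest change rested on few UMIs. Dusp3, Il4i1, Dnah12 and Ikzf3 fell by 2.05, 2.03, 1.95 and 1.86, from 54, 58, 83 and 119 UMIs in WT. At a sum of 10 or more Dnah12 had -0.73 (-1.63 to 0.08) and Ikzf3 -0.88 (-1.71 to -0.13), neither past 2-fold, while Dusp3 had -2.76 from 31 and 2 UMIs and Il4i1 -2.61 from 14 and 1 UMIs. Cenpa, Cenpf, Prc1, Ube2c and Cenpe, all genes of mitosis, rose by 2.13, 2.09, 2.05, 2.0 and 1.80. With 2 as the limit of the rule they rose by 1.18, 0.54, 1.39, 0.48 and 0.87. Without cells above the 99th percentile of UMIs they rose by 3.17, 3.29, 3.03, 3.20 and 2.34. Most UMIs of the cell cycle list of 16 genes lay in few cells. In H2-Aa cit/cit 35 of 222 cells and in WT 11 of 132 had at least 10 of its UMIs. They held 2654 of its 3276 and 924 of its 1363 UMIs. As many were found in 39 of 322 and 24 of 131 Ccr2-expressing DC, and in 1162 of 11303 and 781 of 7682 cells outside the selection. This cut on raw UMIs moves with depth. Of the 35 and 11 selected cells, called dividing cells here, 25 H2-Aa cit/cit and 6 WT cells had a sum of 3 to 4. In that class the list summed to 2113 CPM in H2-Aa cit/cit against 2232 CPM in WT. It summed to 1741 against 834 CPM at a sum of 5 to 9 and to 468 against 649 CPM at 10 or more. The median ratio of the list was -0.15, 0.73 and -0.53 in these classes. In the class of 5 to 9 Ube2c had 56 UMIs in H2-Aa cit/cit against 0, Prc1 27 against 1 and Cenpa 34 against 1. Without the dividing cells the ratio of Cenpa was 0.83 and that of Cenpe 1.0, while Prc1 had -0.58 and Ube2c -1.17. Cenpf then gave no finite ratio. Those cells were left out on their cell cycle UMIs, so these ratios are a description.

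Ly6a, the Sca-1 gene, rose by 1.84, from 24.9 to 89.1 CPM, and in the Ccr2-expressing DC from 28.6 to 92.6 CPM. It had 2 and 21 UMIs at a sum of 10 or more (4.59, 2.56 to 7.73), and its ratio was 1.18 among cells with no Flt3 UMI. Cd209a, a DC lectin gene, rose by 1.91, from 45.8 to 172 CPM, but stood at 19.6 and 19.2 CPM at a sum of 10 or more. With 2 as the limit of the rule it rose by 0.59, not past 2-fold. E330020D12Rik rose by 1.81. Wfdc17, a secreted protein of macrophages that was named after its value was seen, rose from 116 to 353 CPM (1.60), and by 1.76 at a sum of 10 or more, against 397 and 415 CPM in the Ccr2-expressing DC.

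**Figure D4:**
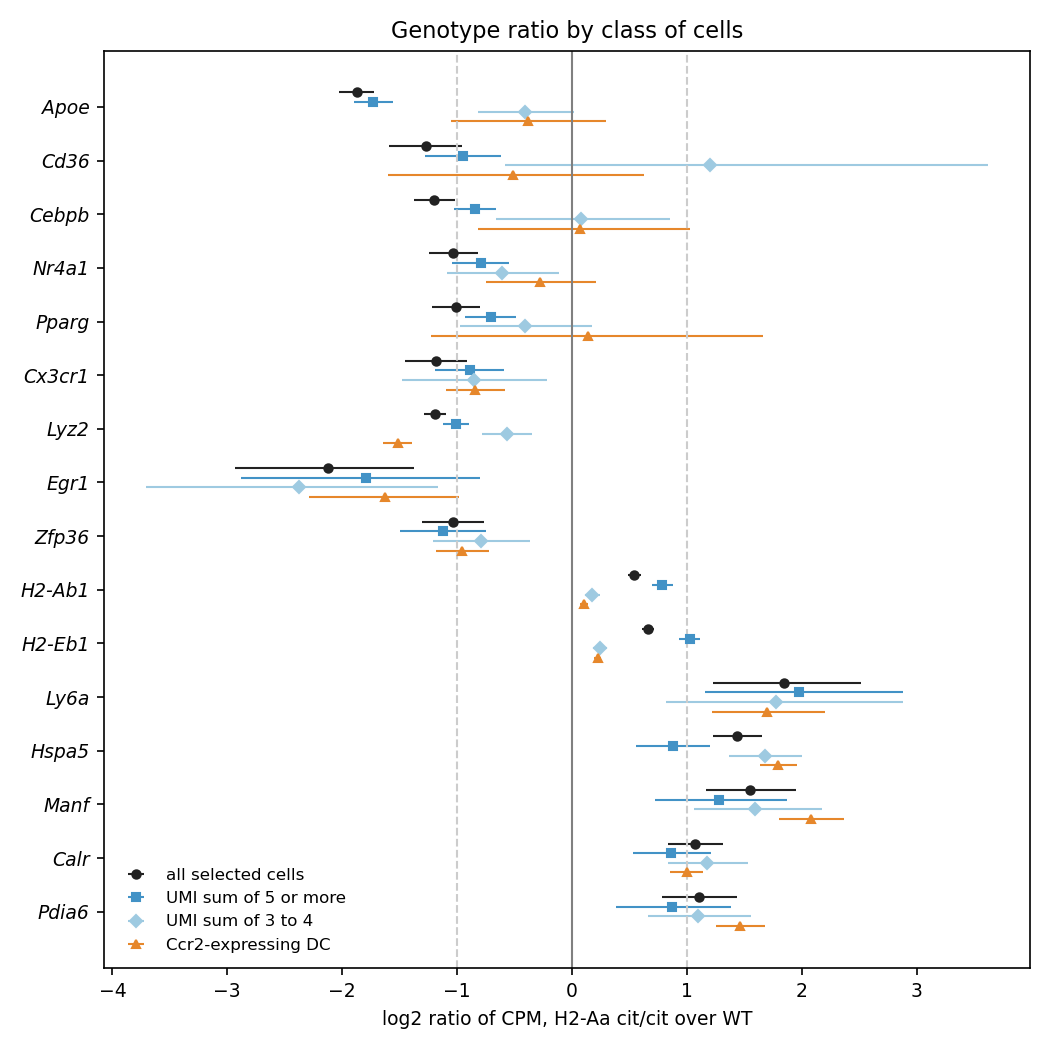
The log2 ratio of CPM in H2-Aa cit/cit over WT for 16 genes, in all monocyte-like cells, those with a sum of Ace, Fabp4 and Treml4 of 5 or more, those with 3 to 4, and Ccr2-expressing DC, with bars for 95% intervals of counting error and dashed lines at 2-fold. Cebpb lies at -1.20 in all selected cells and 0.07 at a sum of 3 to 4, Apoe stays below -1 at a sum of 5 or more, and Hspa5 lies above 0 in all 4 classes.

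Of the 61 genes that were lower, 31 were also past 2-fold among cells with a sum of 5 or more and 8 in the Ccr2-expressing DC, against 1.15% and 0.4% of all 3998 genes. Of the 41 that were higher, 32 and 16 were, against 3.35% and 1.05% of all. The cells with a sum of 5 or more are part of the selected cells. Trafficking and lysosomal genes had medians of -0.24 and -0.09, and ITAM and ITIM receptors of -0.18. Complement genes had 1 of 4 positive, growth factor receptors 3 of 9 and cytokines and chemokines 4 of 6, against 46.9% of all 3998 genes. The median ribosomal share of UMIs was 13.4% in WT against 16.8% in H2-Aa cit/cit monocyte-like cells, and 11.1% and 16.4% over all other cells.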

How the data were processed

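The authors aligned reads of 10x Genomics 3' libraries to GRCm38 with Cell Ranger 5.0.1 and deposited raw UMI counts per gene and called cell, without normalization. The submitters' processing notes also name Seurat. Treatment of intronic reads is not given in the sources used here. The study left out cells with few genes or very high mitochondrial content. All deposited cells were kept here, with no removal of doublets.

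Cells, gene lists (26) and alternatives were chosen with earlier results of these data known, and the classes by UMI sum, the cells without Flt3 and the dividing cells were examined after their values were seen. Counts were summed over a class and scaled to its total (CPM). Ratios carry exact conditional binomial intervals, shares exact Clopper-Pearson intervals, differences of shares Newcombe intervals and levels exact Poisson intervals, all at 95%. PCR duplicates are collapsed by UMIs, and the intervals cover counting error only. Python 3.11.15 with numpy 2.4.6, scipy 1.17.1, pandas 2.3.3 and matplotlib 3.10.9 was used, and the ratio intervals were tested on simulated data. Gene positions came from GENCODE vM21.

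Genes named are those of the rule and marker lists, the 10 highest and 10 lowest against Ccr2-expressing DC (at least 100 CPM in either class in both libraries), the 8 highest and 8 lowest between genotypes (at least 50 CPM), up to 6 members of each list and the 6 that differ most by Fabp4.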

Additional observations from a re-analysis of the deposited data

Results flagged for a closer look

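Genes past 2-fold between the genotypes in the monocyte-like cells whose ratio in the Ccr2-expressing DC was past 1.5-fold the other way are given here, and the difference between the classes was not tested. The log2 ratio of Fosb was 1.02 (37 and 132 UMIs) in the monocyte-like cells and -1.08 in the Ccr2-expressing DC. Ikzf3 had -1.86 (119 and 58 UMIs) against 2.80, the latter from 2 and 29 UMIs. Those 29 lay in 7 cells, 12 of them in 1 cell. Mtss1 had -1.56 (65 and 39 UMIs) against 1.20 from 13 and 62 UMIs. Dgkg had -1.03 (103 and 89 UMIs) against 1.75 from 5 and 35 UMIs.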

How the results depend on the processing

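No paired analysis was possible because each genotype had 1 library, and no library could be left out. The difference in share of 0.237 points moved to 0.968 at a sum of at least 2 and reversed to -0.190 at 5, -0.423 at 10, -0.0850 in cells with no Flt3 UMI and -0.242 after thinning to 1500 UMIs (52 cells in each library). It was 0.0741 without cells of 10 or more cell cycle UMIs. The count of 41 genes higher in H2-Aa cit/cit was 24 at a sum of 2, 112 at 5, 231 at 10, 130 with a minimum of 20 CPM, 83 without Flt3 and 22 without cells of 10 or more cell cycle UMIs. The 61 lower became 140 at 20 CPM, 287 at a sum of 10 and 39 without the dividing cells. Against Ccr2-expressing DC, the 51 higher became 28 at a sum of 2, 104 at 5, 173 at 10, 84 at 20 CPM and 107 without Flt3, and the 19 lower 30 at 5, 76 at 10, 42 at 20 CPM and 40 without Flt3. Of the lipid genes 7 in place of 11 were higher at a sum of 2. The causes were not tested. Prc1 (-0.58) and Ube2c (-1.17) reversed without the dividing cells, and Cd209a (-0.026) at a sum of 10. The sum of 10, the cells without Flt3 and the dividing cells were chosen after seeing the data. Scaling to the median ratio shifted all log2 ratios by 0.03 between genotypes and by -0.13 and -0.09 between classes. Counting the 0.0741, 135 further values that answer a comparison kept their direction and, for counts, stayed within 1.5 times. Depth limits genes under about 50 CPM, for which the cells with a sum of 10 or more in H2-Aa cit/cit (156014 UMIs) gave fewer than 10 UMIs.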
